A study of Mus musculus with 2 samples.

Results

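Chromatin-modifying and remodelling genes were compared between splenic CD4+ T cells of DBA/1 and C57BL/6 mice. Member genes were taken by name alone: those with a probe set annotated to exactly 1 symbol beginning with Hdac, Sirt, Kdm, Kmt2, Dnmt, Smarc, Chd or Brd and followed by a digit, or by a letter from a to e and a digit. For Kmt2, whose symbol already carries its digit, the letter alone was accepted. Kdm5c and Kdm5d were left out. This gave 53 genes with 86 probe sets, of 12393 genes with 20380 probe sets on the array, in 8 prefix groups. They were 8 Hdac, 5 Sirt, 11 Kdm, 4 Kmt2, 4 Dnmt, 10 Smarc, 6 Chd and 5 Brd genes.

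Both groups were mice immunised with glucose-6-phosphate isomerase (GPI) and sampled on day 7. One was the inbred strain DBA/1, which is susceptible to the arthritis that this antigen induces, and the other was C57BL/6, which resists it. CD4+ T cells were enriched from spleen by magnetic sorting, and 1 array was hybridised per strain from 3 µg of total RNA. The sources used here do not give age, sex or the number of mice behind each RNA sample. No unimmunised sample was analysed here. With 1 array per strain there is no replicate error and no test, so each value below describes these 2 RNA samples and not the strains.

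DNA in the nucleus is wound on histones, and the state of these histones sets how readily a gene can be read. Writers add acetyl or methyl groups, erasers remove them, readers bind them, and remodellers use ATP to slide or evict histones. In CD4+ T cells such proteins hold cytokine loci open or closed as cells commit to a helper fate. The prefix groups cover these roles. Hdac and Sirt genes encode deacetylases, and Kdm genes demethylases of histone lysines. Most Kmt2 genes encode methyltransferases that mark active promoters and enhancers, and most Dnmt genes methyltransferases of DNA. Smarc genes encode ATPases and accessory subunits of the SWI/SNF and ISWI remodellers, so that not every member is itself an enzyme. Chd genes encode remodelling ATPases, most of them with chromodomains, and Brd genes bromodomain readers of acetylated lysine.

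Most members differed little between the arrays. The signal of a probe set, a linear intensity, was treated as unreliable under the median of its array (37.6 for DBA/1 and 38.04 for C57BL/6), and lower signals were raised to this floor before the log2 ratio of DBA/1 over C57BL/6 was taken. At least 1 signal lay above the floor for 46 of the 53 members, and both did for 44. The other 7, which were under the floor on both arrays and receive no ratio, were Hdac9, Hdac11, Kdm8, Kmt2d, Dnmt3l, Smarca1 and Smarcd3. Of the 46, Sirt3 was at least 1.5-fold higher in DBA/1 and Dnmt3b at least 1.5-fold lower, which is 1 gene in each direction. Among all 6936 genes above the floor, 11.8% were at least 1.5-fold higher and 5.97% at least 1.5-fold lower. At 2-fold there was no member in either direction, against 3.84% of all genes higher and 1.9% lower. Counted by probe set, 2 of the 69 usable member probe sets were at least 1.5-fold higher (Sirt3 and 1 of Chd1) and 4 lower (Dnmt3b and 1 each of Hdac7, Kdm6a and Kmt2a), against 10.6% and 6.75% of the 10889 usable probe sets of the array.

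The members also lay slightly to the C57BL/6 side of the array as a whole. Their median log2 ratio was -0.052, against 0.10 over all genes above the floor, and 32 of the 46 were lower in DBA/1 while 60.6% of all genes were higher. The quartiles of the members were -0.21 and 0.030, and those of all genes -0.15 and 0.36. The distance of the members' median from that of all genes was -0.15. It ranged from -0.19 to -0.13 over 11 alternative ways of processing. Of these, median centring cannot change the distance, since it shifts all genes alike. A repeat measurement on these arrays exists only where a gene has several probe sets. Over 2325 genes with a pair measured above both floors, the error of 1 probe set was 0.31 on the log2 scale (SD of the difference between the pair divided by the square root of 2). Of the 46 members, 32 had a log2 ratio closer to 0 than this error. The share of all genes that did was not counted, so this is no trait of the members. The error covers probes only, not mice, sorts or labelling reactions.

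**Figure D1:**
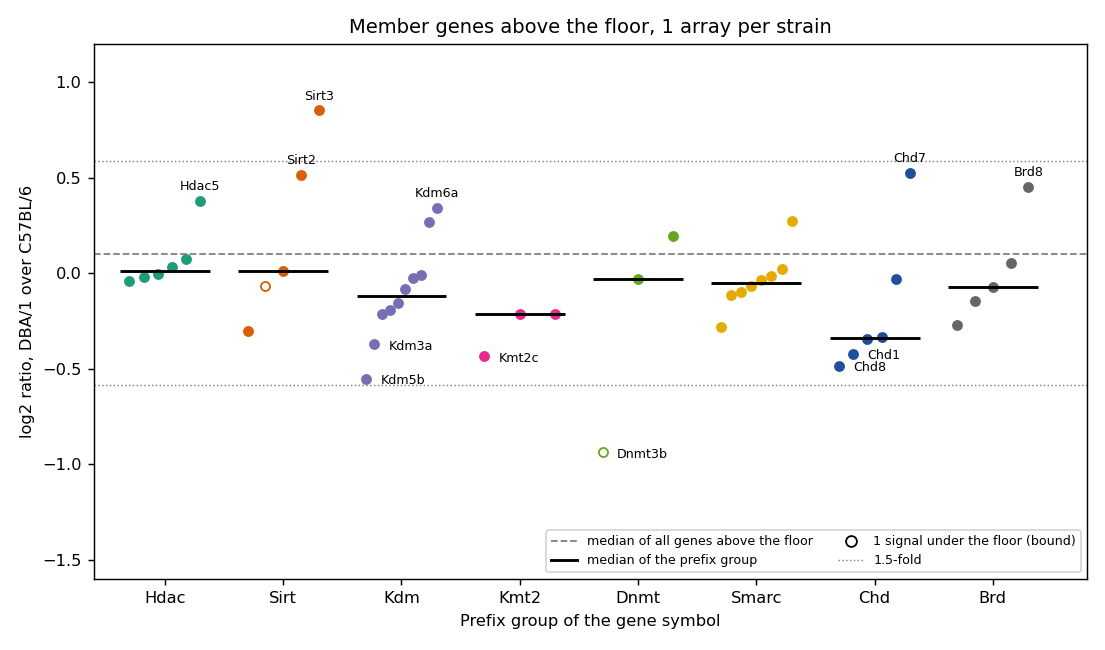
Log2 ratio of DBA/1 over C57BL/6 (vertical axis) for the 46 member genes above the floor, by prefix group (horizontal axis). Each point is 1 gene, open where 1 signal lay under the floor, black bars are group medians, and dotted lines mark 1.5-fold. Only Sirt3 and Dnmt3b lie beyond 1.5-fold, and the Kmt2 and Chd medians (-0.21 and -0.34) lie lowest.

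**Figure D2:**
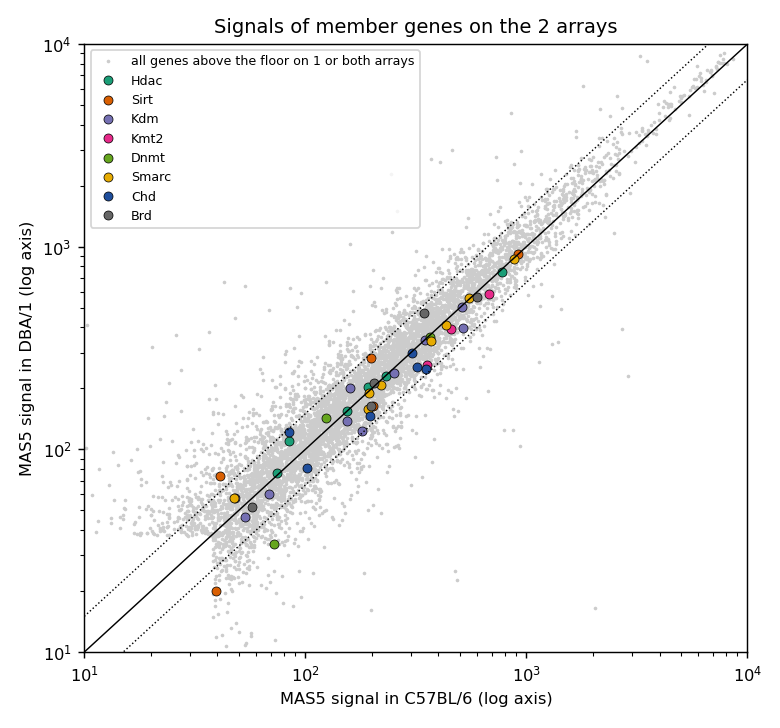
Linear MAS5 signal in DBA/1 against C57BL/6 on log axes, with 1 point per gene. Grey points are genes above the floor on 1 or both arrays (signals under 10 fall outside the axes), coloured points are members by prefix group, and dotted lines mark 1.5-fold. Most members lie between the dotted lines, up to Sirt7 at 923 and 915, while Sirt3, Dnmt3b and Sirt4 lie outside them, the last with signals of 19.98 and 39.3.

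Among the classical histone deacetylases no gene above the floor reached 1.5-fold. Hdac1 and Hdac2 encode the catalytic subunits of the NuRD, Sin3 and CoREST corepressors. Hdac1 read 753 in DBA/1 and 773 in C57BL/6, a log2 ratio of -0.039. Hdac2 read 154 and 155, a log2 ratio of -0.0061. Hdac3, the deacetylase of the NCoR corepressor, read 202 and 192 (1.05-fold higher in DBA/1). Hdac6, which acts largely on tubulin in the cytoplasm, read 76.2 and 74.6. Hdac3 thus had the largest fold of these 4 deacetylases.

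The class IIa deacetylases shuttle between nucleus and cytoplasm with the activation state of the cell. Hdac5 read 110 in DBA/1 and 84.6 in C57BL/6, 1.30-fold higher, and had the largest ratio of its prefix group. Hdac7, which restrains gene expression in thymocytes, gave different answers with its 2 probe sets. The brighter one read 229 and 233, and the dimmer one read 88.0 and 140, or 1.59-fold lower in DBA/1. The Hdac group as a whole had a median log2 ratio of 0.013 over 6 genes, 3 higher and 3 lower. The sign of that median turned under 6 alternatives: -0.072 with median centring, -0.044 with quantile normalization, -0.045 with lowess, -0.014 with the floor at percentile 25, -0.021 with a minimum signal at percentile 75 and -0.0061 without suffixed probe sets.

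Sirtuins are deacylases that consume NAD+ and sit in different compartments of the cell. The Sirt group held the only member at least 1.5-fold higher in DBA/1. Sirt3, the main deacetylase of mitochondria, has a single probe set. Its signal was 73.9 in DBA/1 against 41.0 in C57BL/6, which is 1.81-fold higher. The C57BL/6 signal was barely above the floor. With log2(signal + 32) the log2 ratio of Sirt3 was 0.54 instead of 0.85, below 1.5-fold.

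The other sirtuins went in both directions. Sirt2, largely cytoplasmic, read 284 and 198, 1.43-fold higher in DBA/1. Sirt1, a nuclear sirtuin, went the other way, with 165 and 203 (1.23-fold lower). Sirt7, a nucleolar sirtuin, read 923 and 915. Sirt4, also mitochondrial, read 19.98 in DBA/1, under the floor, and 39.3 in C57BL/6, just above it, so that it was at least 1.05-fold lower, a bound that gives it no rank among the sirtuins (its log2 ratio was -0.98 without a floor). The median of the 5 genes was 0.013, with log2 ratios from -0.30 to 0.85. It turned negative with median centring (-0.072), quantile normalization (-0.043) and lowess (-0.023), and without suffixed probe sets (-0.065), which leaves out Sirt2 and Sirt3. Each sirtuin had 1 probe set, so none had a repeat measurement.

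Of 10 demethylase genes 8 were lower in DBA/1, against 69.6% of all members and 39.4% of all genes. None lay beyond 1.5-fold, and the group median was -0.12 (log2 ratio). Kdm5b removes methyl groups from the lysine marked by the Kmt2 enzymes, and it had the largest ratio of the group. It read 123 in DBA/1 and 181 in C57BL/6, or 1.47-fold lower, just short of the 1.5-fold line. With each of the 3 scaling alternatives it passed that line (log2 ratios -0.64, -0.63 and -0.63), while it was -0.46 with log2(signal + 32) and -0.31 with the mean over usable probe sets. Its second probe set read 22.8, under the floor, and 39.2. Kdm3a, a demethylase of a repressive mark, read 398 and 516, 1.30-fold lower in DBA/1.

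Kdm6a (UTX), the X-linked demethylase of the Polycomb mark, had probe sets that disagreed. The brighter one read 201 in DBA/1 and 158 in C57BL/6, 1.27-fold higher, and the other read 122 and 196, 1.61-fold lower. Its direction therefore depends on the probe set. Kdm5a read 57.7 and 47.9, a log2 ratio of 0.27, and was the other member of the group above 0. Kdm1a (LSD1), the flavin-dependent demethylase of the CoREST complex, read 504 and 512, and its second probe set read 185 and 194. Kdm2b, Kdm3b, Kdm4b, Kdm4c and Kdm7a had log2 ratios from -0.21 to -0.011.

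All 3 Kmt2 genes above the floor were lower in DBA/1. Their median (log2 ratio) was -0.21. Kmt2c, a subunit of the enhancer-marking COMPASS complexes, read 262 in DBA/1 and 354 in C57BL/6, 1.35-fold lower. Kmt2a (MLL1), needed for the memory of helper T cell states, read 392 and 454, 1.16-fold lower. A second probe set of Kmt2a read 145 and 260, 1.80-fold lower, the largest difference between the arrays of any member probe set above the floor on both, in the direction of C57BL/6. Kmt2e, a divergent member of the family, read 582 and 675 (1.16-fold lower), and its other probe set 492 and 503. All 5 usable Kmt2 probe sets, from 3 genes, were thus lower in DBA/1, as were 4572 of the 10889 usable probe sets of the array. The brighter Kmt2a probe set (-0.21) and both of Kmt2e (-0.21 and -0.033) lay within the error of 1 probe set (0.31). The group median lay under that of all genes by 0.32 as deposited, and it stayed negative under all 10 alternatives run for it, from -0.44 to -0.20. With no floor, the floor at percentile 60 and the minimum signal the same genes and ratios entered, so these settings could not change it.

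The sequences just upstream of Kmt2a and Kmt2c, whose signals were lower in DBA/1, are shown with those of Sirt2 and Sirt3, the sirtuins with the largest ratios in the other direction. Each is the 250 bases before the most upstream start that RefSeq lists for the gene (build GRCm38.p6, a C57BL/6J reference), on the strand of the gene. Kmt2a is at chr9:44881290-44881539 on the minus strand, Kmt2c at chr5:25498784-25499033 on the minus strand, Sirt2 at chr7:28766502-28766751 on the plus strand and Sirt3 at chr7:140882310-140882559 on the minus strand. Capitals mark GC boxes (GGGCGG or CCGCCC) and CCAAT boxes (CCAAT or ATTGG), where overlapping matches run together.
Kmt2a: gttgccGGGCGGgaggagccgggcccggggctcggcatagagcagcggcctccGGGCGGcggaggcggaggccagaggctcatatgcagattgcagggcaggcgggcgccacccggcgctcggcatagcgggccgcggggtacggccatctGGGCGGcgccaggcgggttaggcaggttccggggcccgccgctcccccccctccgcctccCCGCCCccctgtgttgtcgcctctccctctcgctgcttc
Kmt2c: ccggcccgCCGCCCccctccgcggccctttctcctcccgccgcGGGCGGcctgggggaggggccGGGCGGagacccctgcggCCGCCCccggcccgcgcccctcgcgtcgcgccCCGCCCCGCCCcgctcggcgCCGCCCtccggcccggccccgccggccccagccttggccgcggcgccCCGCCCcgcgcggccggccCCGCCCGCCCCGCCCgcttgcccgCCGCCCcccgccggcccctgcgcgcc
Sirt2: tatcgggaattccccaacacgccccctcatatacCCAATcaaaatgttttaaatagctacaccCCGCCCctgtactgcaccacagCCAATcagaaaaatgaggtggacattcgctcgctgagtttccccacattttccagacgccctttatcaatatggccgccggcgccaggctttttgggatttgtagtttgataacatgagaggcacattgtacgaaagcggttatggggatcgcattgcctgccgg
Sirt3: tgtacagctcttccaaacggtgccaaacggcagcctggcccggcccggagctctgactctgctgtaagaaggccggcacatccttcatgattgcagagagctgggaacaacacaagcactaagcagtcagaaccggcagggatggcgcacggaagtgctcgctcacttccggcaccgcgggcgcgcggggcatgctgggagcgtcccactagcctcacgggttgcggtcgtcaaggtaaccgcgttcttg
Kmt2a holds 4 GC boxes and 29 CG pairs, and Kmt2c 12 GC boxes and 48 CG pairs, with no CCAAT box in either. Sirt2 holds 1 GC box, 2 CCAAT boxes and 13 CG pairs, and Sirt3 21 CG pairs and neither motif. These genes were picked for display, and a relation of upstream sequence to ratio over the members was not tested.

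Upstream sequences of this kind were found for 43 of the 53 members. The median was 21 CG pairs per 250 bases, against 14 over 9887 genes of the array that matched. A GC box was present in 33 of the 43 (76.7%), against 53.1% of those genes of the array and 33.0% of all 27025 genes listed. A CCAAT box was present in 11 (25.6%), against 35.9% and 34.5%. All 9 Smarc genes with a sequence held a GC box. These are descriptions of the reference sequence, and a match of letters is not evidence of a bound factor.

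The DNA methyltransferases showed the largest member ratio in the direction of C57BL/6, at a weak signal. Dnmt3b, which sets new methylation, read 34.2 in DBA/1, under the floor, and 71.9 in C57BL/6, so that it was at least 1.91-fold lower in DBA/1. Its other probe set was under the floor on both arrays. Neither signal reached the 75th percentile of its array (171 and 162), and with the floor at percentile 60 the gene was no longer above it. Dnmt1, which copies methylation at replication, read 358 and 366, and its second probe set read 296 and 335 (1.13-fold lower).

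Dnmt3a, a de novo methyltransferase that acts in helper T cells, read 142 in DBA/1 and 125 in C57BL/6 in its brightest probe set, 1.14-fold higher. The other probe set above the floor on both arrays read 44.2 and 46.0. A further probe set read 33.0 and 50.2, at least 1.34-fold lower. The 3 genes of the group had a median log2 ratio of -0.029. It became 0.19 without suffixed probe sets (those with names ending in _a_at, _s_at or _x_at), which leaves Dnmt3a alone.

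The SWI/SNF and ISWI genes were among the most even. All 8 Smarc genes above the floor were within 1.5-fold, with log2 ratios from -0.28 to 0.27 and a median of -0.049. Of the 8, 6 were lower in DBA/1, against 69.6% of all members and 39.4% of all genes. Smarca4 (BRG1), the SWI/SNF ATPase, read 413 in DBA/1 and 432 in C57BL/6. Smarca2 (BRM), the alternative ATPase, read 159 and 193, 1.21-fold lower, and its second probe set read 51.3 and 71.0, 1.38-fold lower. Both ATPases were therefore lower in DBA/1 in the probe set used for the gene, and the second probe set of Smarca4 was higher (157 and 153).

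Smarca5, the ISWI ATPase, had 3 probe sets in 2 directions. They read 560 and 551, 281 and 218, and 113 and 160, for log2 ratios of 0.023, 0.36 and -0.50. Smarcd1, an accessory subunit that links the complex to transcription factors, read 57.6 and 47.7, 1.21-fold higher in DBA/1 and the largest ratio upward in the group. The core subunits Smarcb1 and Smarcc1 lay at -0.034 and -0.097. Smarcd2 read 870 and 879. Smarce1, the HMG-box subunit, lay at -0.11, with a second probe set at 0.20. The accessory subunits thus ran from -0.11 to 0.27 on the log2 scale.

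Of 6 Chd genes 5 were lower in DBA/1, against 69.6% of all members and 39.4% of all genes. The group median was -0.34. It was the lowest of the group medians with the brightest probe set of each gene, but with the mean over usable probe sets the Kmt2 median (-0.44) and the Kdm median (-0.16) lay under it. Chd8 read 250 in DBA/1 and 350 in C57BL/6, 1.40-fold lower. Chd4 (Mi-2 beta), the ATPase of NuRD, read 255 and 321, 1.26-fold lower, and its second probe set read 65.2 and 75.5. Both point to C57BL/6. Chd6 read 80.5 and 102, 1.27-fold lower. Chd1l (ALC1), a relative without chromodomains, read 298 and 304.

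Chd1 and Chd7 were exceptions in different ways. Chd1, a remodeller of transcribed genes, read 146 and 196 in its brighter probe set, 1.34-fold lower, while another read 111 and 73.7, 1.51-fold higher in DBA/1. Its direction therefore depends on the probe set. Chd7, a remodeller at enhancers, read 122 and 84.5, 1.44-fold higher in DBA/1, and was the single gene of the group above 0. With the mean over all usable probe sets of each gene the Chd median was -0.15, with Chd1 at 0.085 and Chd4 at -0.27.

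Bromodomain readers had a median log2 ratio of -0.073 over 5 genes, 2 higher and 3 lower. Brd2 and Brd3 are BET proteins, which recruit the transcription elongation machinery to acetylated chromatin. Brd2 read 567 in DBA/1 and 597 in C57BL/6, and its second probe set 298 and 278. Brd3 read 51.9 and 57.4. Brd1, a scaffold of histone acetyltransferase complexes, read 164 and 198, 1.21-fold lower. Brd7, a subunit of the polybromo form of SWI/SNF, read 212 and 204.

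Brd8, part of the Tip60 acetyltransferase complex, had the largest ratio of the readers, 470 in DBA/1 and 343 in C57BL/6 (1.37-fold higher). Its other 3 probe sets lay at log2 ratios of -0.15, 0.059 and -0.18, and their mean with the brightest was 0.045. The group median became positive with the mean over probe sets (0.015) and without suffixed probe sets (0.051).

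Probe sets of the same gene could be compared for 17 members with at least 2 of them above both floors. In 9 of them (52.9%) at least 1 probe set was higher in DBA/1 and another lower, against 41.1% of the 2325 genes of the array with such probe sets. In 6 of the 17 (35.3%) the ratios were at least 1.5-fold apart, against 21.4% of those genes. These were Kdm6a, Chd1, Smarca5, Hdac7, Brd8 and Kmt2a, with distances of 1.03, 1.01, 0.87, 0.65, 0.64 and 0.63 on the log2 scale. In Kdm6a, Chd1, Smarca5 and Brd8 the probe sets differed in sign, and in Hdac7 and Kmt2a all were lower in DBA/1. The error of 1 probe set was 0.34 among the members and 0.31 among all genes. The cause of the disagreement was not tested.

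**Figure D3:**
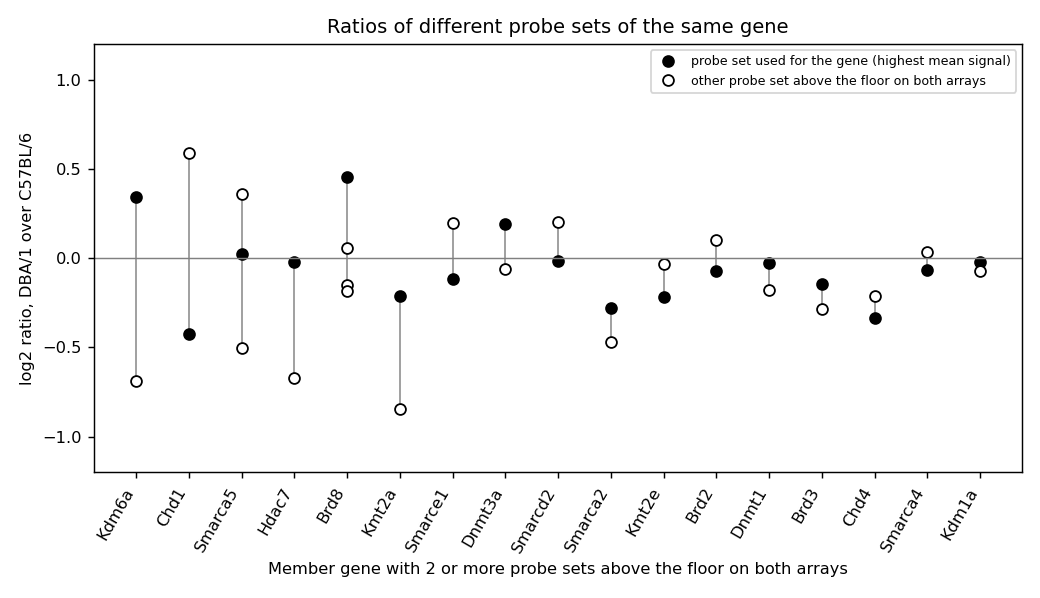
Log2 ratios of DBA/1 over C57BL/6 (vertical axis) for the 17 member genes with 2 or more probe sets above both floors (horizontal axis, ordered by the distance between their probe sets). Filled points are the probe sets used for the gene and open points the others. Kdm6a and Chd1 span 1.03 and 1.01 across 0, while the probe sets of Kdm1a lie 0.050 apart.

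**Figure D4:**
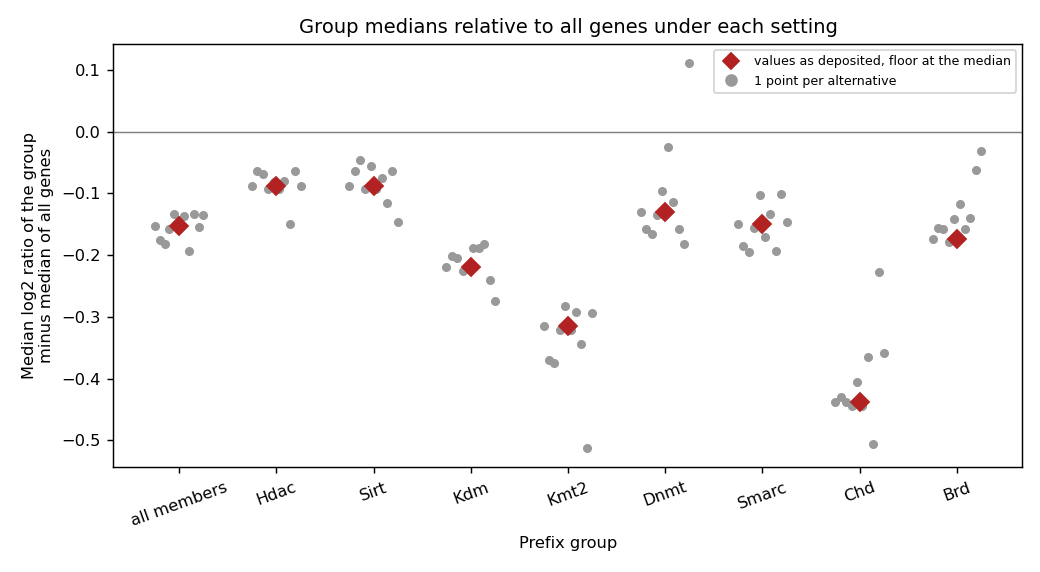
Median log2 ratio of each prefix group minus the median of all genes (vertical axis), by group (horizontal axis). Diamonds are the values as deposited with the floor at the median, and grey points the alternatives. The distance for all members stays between -0.19 and -0.13, and Dnmt is the group with an alternative above 0 (0.11, from Dnmt3a alone).

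Partners and relatives of these genes were taken from 8 further lists of chromatin genes. Over 7 of the 8 the median log2 ratio lay between -0.13 and 0.0013, under that of all genes (0.10). Of the 18 deacetylase partners above the floor, from NuRD, Sin3, CoREST and NCoR, none reached 1.5-fold and 9 lay on each side. The largest ratios were those of Sap30 (0.46), Brms1 (0.38) and Mbd2 (0.32). None of the 11 COMPASS partners of the Kmt2 enzymes reached 1.5-fold either (median -0.13), with Cxxc1 at -0.44, Dpy30 at 0.37 and Wdr82 at -0.34.

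Among 22 SWI/SNF partners and other remodellers (median -0.098) 1 gene was at least 1.5-fold apart, and it was far beyond that line. Bcl11b, a T cell lineage transcription factor that associates with SWI/SNF, read 331 in DBA/1 and 1304 in C57BL/6, 3.93-fold lower, in its single probe set. Phf10 lay at 0.49 and Actl6a at -0.45. Of 18 Polycomb genes (median -0.12), 1 was at least 1.5-fold higher and 3 lower, against 11.8% and 5.97% of all genes. Cbx7, a reader of the Polycomb mark, read 16.9 and 87.8, at least 2.34-fold lower in DBA/1. Cbx6 lay at -0.70. Mtf2 lay at 0.64, while its other 3 probe sets lay at -0.26, -0.17 and -0.029.

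Of 9 histone acetyltransferases (median -0.10), Kat6a was 1.76-fold lower in DBA/1 (264 and 464), with Kat6b at -0.41 and Kat2b at 0.38. Among 8 other lysine methyltransferases (median -0.063), Smyd2 lay at 0.68, Setd1a at -0.65 and Ehmt2 at 0.39, with a second Ehmt2 probe set at 0.051. The 5 genes of the DNA methylation list had the one median above that of all genes, 0.20. Uhrf1, the partner of Dnmt1 at replication forks, lay at 0.46, with a second probe set at 0.68. Gadd45a lay at 0.44 and Mbd1 at -0.30, with a second Mbd1 probe set at -0.23. Histone chaperones and other readers (15 genes, median -0.059) held 2 genes at least 1.5-fold higher, close to the share of all genes (11.8%). Supt16, a subunit of the FACT histone chaperone, read 623 and 220, 2.83-fold higher in DBA/1, and its second probe set, at 130 against a C57BL/6 signal under the floor, was at least 3.41-fold higher. Asf1b, a chaperone of new histones in dividing cells, read 234 and 121 (1.94-fold higher). Jmjd6 lay at -0.55, with a second probe set at -0.21.

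**Figure D5:**
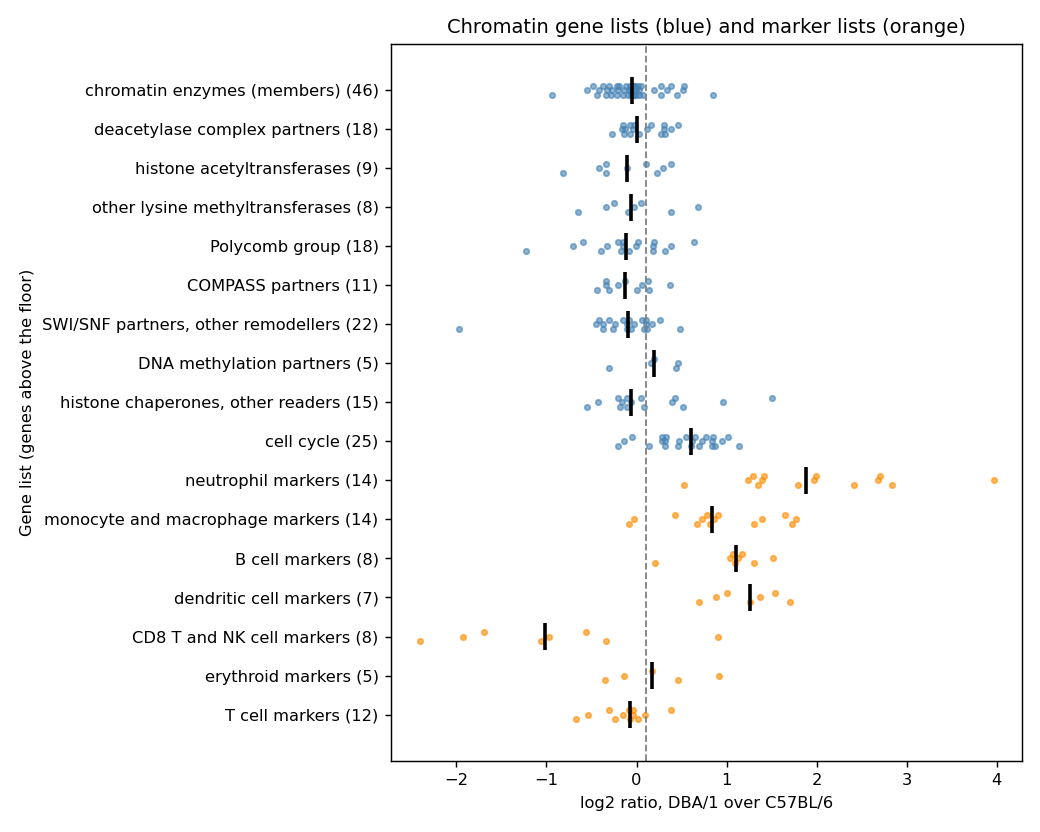
Log2 ratio of DBA/1 over C57BL/6 (horizontal axis) for each gene above the floor, by list (vertical axis, number of genes in parentheses). Blue points are the members, the chromatin lists and the cell cycle list, orange points the marker lists, black bars list medians, and the dashed line the median of all genes (0.10). The chromatin lists centre near 0, with Bcl11b (3.93-fold lower) and Supt16 (2.83-fold higher) as outermost points, while neutrophil markers centre at 1.88.

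Genes of dividing cells and of most other cell types listed differed between the same samples. In a mixed sample fewer cells of a type and less RNA per cell cannot be told apart. All 14 neutrophil markers were higher in DBA/1 (summed signal 35635 and 10807, median 1.88), as were all 8 B cell markers above the floor (1754 and 826, median 1.11, with Pax5 and Ebf1 under the floor on both arrays) and 12 of 14 monocyte and macrophage markers (7966 and 4195, median 0.84). All 7 dendritic cell markers above the floor were higher (4928 and 1911), and 7 of 8 CD8 T and NK cell markers above it were lower (696 and 1585). Erythroid markers above the floor were split, with 3 higher and 2 lower (1926 and 1805, median 0.18). The summed signals cover every measured marker of a list, including those under the floor. The defining genes of the sorted cells were present on both arrays, with Cd4 at 913 and 857 and Cd3e at 747 and 791. Of the 12 T cell markers, 3 were higher in DBA/1 and 9 lower. They ran from Zap70 (389 and 619) and Thy1 (1143 and 1664) to Trat1 (441 and 338). Their median was -0.076, close to the members' -0.052. Of 25 cell cycle genes 22 were higher in DBA/1 (median 0.61). The 3' over 5' signal ratios of the Actb, Gapdh and Tfrc controls were 1.25, 0.781 and 5.08 in DBA/1 and 1.27, 0.709 and 4.15 in C57BL/6. The part of these differences in the members' values was not tested.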

How the data were processed

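RNA of the 2 samples was labelled with biotin after oligo(dT)-T7 priming, per the labels' protocols, which favours the 3' ends of transcripts. The authors deposited linear intensities, 1 per probe set and array, made with MAS5 per the submitters' processing notes. Its scaling target and the genome build are not stated there. A platform annotation named 1 symbol for 20380 of 22690 probe sets, several for 691 and none for 1555, and 64 are controls. For each gene the probe set brightest on average (mean log2 signal) was used. Ratios were log2 of DBA/1 over C57BL/6 with signals under the array median raised to it, and a ratio with 1 signal under this floor is a bound. Values were used as deposited, although the median log2 ratio of probe sets above both floors was 0.085. With 1 array per strain no test was possible, so genes were counted at 1.5-fold and 2-fold, and the number of arrays limits the precision.

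The members and lists were chosen with earlier results of these data known. Alternatives were median centring, quantile normalization, lowess (span 0.3), no floor (signals under 1 set to 1), floors at percentiles 25 and 60, log2(signal + 32), a minimum signal at percentile 75, the mean over probe sets, no suffixed probe sets, and no Kmt2 genes. Named were, per prefix group, the 4 genes with the largest ratio, and genes beyond 1.5-fold. Also named were genes with probe sets of opposite direction of which 1 was beyond 1.5-fold, and the 3 largest of each related chromatin list. Some of these were given by log2 ratio only. Other members were named because the member rule is one of names. Python 3.11.15 with numpy 2.4.6, pandas 2.3.3 and statsmodels 0.14.6 was used, and the ratio and scaling steps were tested on simulated data.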

Additional observations from a re-analysis of the deposited data

How the results depend on the processing

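No paired analysis was possible because there is 1 sample per strain. Leaving out a replicate was not possible for the same reason. The sign of the median over all members and of the Kdm, Kmt2, Smarc and Chd medians held under every alternative run. The floor settings left most member ratios unchanged and so had little room to turn these signs. The median over all members was -0.14 with median centring, -0.16 with quantile normalization and -0.16 with lowess, and the Smarc median was -0.17 with both quantile normalization and lowess. With the mean over usable probe sets the Kmt2 median was -0.44 and the Chd median -0.15. Without suffixed probe sets the Dnmt median was 0.19.

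The number of members at least 1.5-fold higher in DBA/1 was 0 with the floor at percentile 60, with log2(signal + 32), with a minimum signal at percentile 75 and without suffixed probe sets. The number at least 1.5-fold lower was 2 with median centring, lowess or no floor, 3 with quantile normalization or the floor at percentile 25, and 0 with the floor at percentile 60 or the minimum signal. At least 2-fold lower there was 1 with median centring, no floor or the floor at percentile 25. Of 430 member values under the alternatives, 419 moved by less than the error of 1 probe set and 11 by more, and the sign of 11 members changed at least once. Many of these values could hardly move. Median centring shifts each by 0.085, and the floor settings leave ratios of signals above the floor as they were. The count is therefore no measure of robustness. Signals near the floor, such as those of Sirt3, Sirt4 and Dnmt3b, have the least support; Sirt4 lay at -0.98 without a floor.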

Other observations

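Family symbols that the naming rule does not reach were also measured. Smarcad1, a remodeller that acts at replication forks, had probe sets at 95.6 in DBA/1 and 102 in C57BL/6 and at 70.7 and 43.0, for log2 ratios of -0.087 and 0.72. Smarcal1, which anneals single-stranded DNA at stalled forks, read 163 and 144 in its probe set above the floor. Brdt, a bromodomain protein of the testis, was under the floor on both arrays in both of its probe sets. Chdh encodes choline dehydrogenase and is no chromatin gene; it read 60.8 and 100.1, 1.65-fold lower in DBA/1.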
